A study of Mus musculus with 8 samples.

Results

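The transforming growth factor beta (TGF-beta) and bone morphogenetic protein (BMP) genes were followed in bulk RNA-seq of Lewis lung carcinoma (LLC) tumors, with 4 wild-type and 4 Ago2 knock-out tumors. The set held 45 genes of the 55487 in the deposited tables: 15 ligand genes, 12 receptors and co-receptors, 8 SMADs, 6 antagonists and binding proteins, and 4 latent TGF-beta binding proteins (LTBPs). Members were found by matching the Ensembl identifiers of the tables to mouse symbols of GENCODE M21, and 41 of the 45 had enough reads to be tested. LLC is a mouse carcinoma line of C57BL origin. Its cells, either wild-type or Ago2 knock-out, were implanted under the skin of female C57BL/6J mice, 6 to 8 weeks old when purchased, and 1 tumor per mouse was taken on day 12. The knock-out cells were made with a lentiviral Cas9 vector and a guide against Ago2, kept under puromycin, and grown from 1 clone, so the clone and the genotype cannot be told apart. No anti-PD1 or other treatment is named for any of the 8 tumors, the labels put all 8 in the same batch, and the mice themselves carried no Ago2 deletion, so that stroma and immune cells of the host were Ago2-proficient in both groups.

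TGF-beta family ligands are secreted dimers. They bind a type II receptor kinase, which phosphorylates a type I receptor, which in turn phosphorylates receptor SMADs. TGF-beta and activin act mainly through Smad2 and Smad3, BMPs through Smad1, Smad5 and Smad9, and both branches use Smad4, while Smad6 and Smad7 inhibit. TGF-beta is stored in the matrix in a latent complex with an LTBP, and BMPs and activins are held in check by secreted antagonists such as gremlin, noggin and the follistatins. In tumors the family is known for its action on fibroblasts, vessels and immune cells, and Ago2 itself is the Argonaute protein that carries microRNAs to their target mRNAs.

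Library totals ran from 7903288 counts in wild-type tumor 4 to 268564145 in knock-out tumor 4. Levels are given as CPM, which are counts brought to a common library size with edgeR's TMM factors, and values of single tumors stand in the order of their replicate numbers, 1 to 4. The targeted gene did not check the labels: Ago2 mRNA was 154 ± 28.9 CPM (SD, n = 4) in wild-type and 239 ± 99.1 CPM (SD, n = 4) in knock-out tumors, with an edgeR adjusted p of 0.205. Wild-type tumor 3 stood apart, with summed skeletal muscle markers of 3655 CPM against 269 to 481 CPM in the other wild-type tumors and 54.7 to 220 CPM in the knock-out tumors. Its keratinocyte markers summed to 18.0 CPM, against 181 to 959 CPM in the other 7 tumors. Summed fibroblast markers were 4988 to 7315 CPM in wild-type and 2414 to 4771 CPM in knock-out tumors, without overlap, although 4 of the 10 genes were higher in the knock-out tumors and 1, Fap, passed the test as lower. The collagen gene Col3a1 held most of this sum in every tumor. Its own values were 3760 to 5748 CPM in wild-type and 1406 to 3699 CPM in knock-out tumors. In such bulk samples, fewer cells of a type and less RNA per cell cannot be told apart. The tissue label, lung carcinoma, could be checked only in part: Krt8 and Krt18 were at 231 CPM or more in all tumors, while the lung lineage gene Nkx2-1 had no read in any. These are 3 of 10 epithelial markers, of which 8 had enough reads to be tested. The 10 summed to 503 to 1261 CPM in wild-type and 719 to 1253 CPM in knock-out tumors. In wild-type tumor 1, which had the lowest sum, Krt8 and Krt18 held most of it. The libraries also differed in the mean GC content of their counted genes, which was 52.6% and 53.0% in wild-type tumors 2 and 4 and 49.9% to 51.2% in the other 6.

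Between genotypes, 5 of the 41 tested members differed at an adjusted p under 0.05 in edgeR's quasi-likelihood test, with the adjustment over all 16061 genes tested. This was 12.2% of the tested members, where 3.49% of all tested genes were called. Bmp4, Grem1, Fstl3 and Ltbp4 were lower in the knock-out tumors (2.12% of all genes were called lower), and Acvr2a, a type II receptor for activin, was higher (1.36% of all genes were called higher). The groups did not overlap in CPM for 10 members, 8 lower and 2 higher, which was 24.4% of the tested members against 16.4% of all tested genes. The median log2 fold change, knock-out minus wild-type, was -0.11 over the members and 0.04 over all genes tested. By role the medians were -0.46 for 14 ligand genes, 0.23 for 11 receptors and co-receptors, 0.43 for 7 SMADs, -1.25 for 5 antagonists and -1.03 for the 4 LTBPs. In a fit with the GC trend of each library removed, they were -0.36, 0.24, 0.30, -0.86 and -0.48, in the same order. The call count changed with single tumors, and the calls over all genes changed with it. No member was called without wild-type tumor 2, knock-out tumor 3 or knock-out tumor 4 (0 members), where 0.870%, 0.902% and 0.541% of all genes were called. There was 1 call without knock-out tumor 2 (1.02% of all genes), there were 3 without wild-type tumor 4 (1.61%), and there were 9 without knock-out tumor 1 (11%). At an unadjusted p under 0.05 in edgeR, 19 members passed with all 8 tumors, where 4281 of the 16061 genes tested passed. When any 1 tumor was left out, 12 to 20 members passed. The count over all genes was not taken there, so these counts do not show whether the members differed from other genes.

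**Figure D1:**
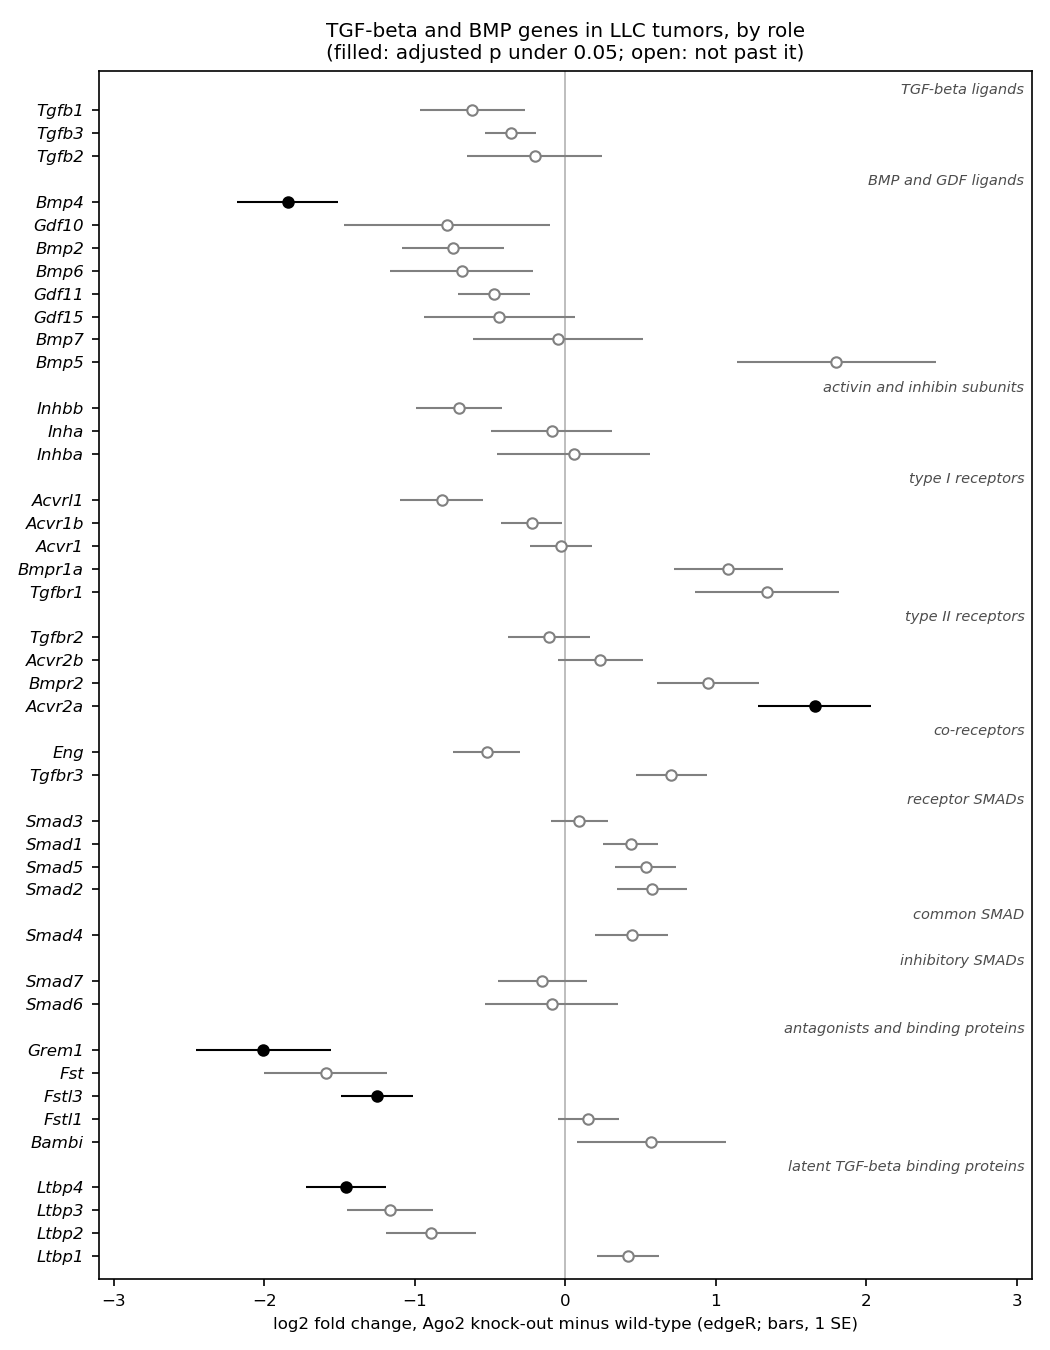
Log2 fold change of the 41 tested members (knock-out minus wild-type; x axis) by role, with bars of 1 standard error and filled points for an adjusted p under 0.05. Bmp4, Grem1, Fstl3 and Ltbp4 lie left of 0 and Acvr2a lies right of it, while the receptor SMADs all lie at or right of 0.

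Levels of different genes were compared per transcript length, in the authors' TPM, a unit normalized for transcript length and depth. The members spread widely: 10 averaged at least 50 TPM over the 8 tumors, 12 lay between 10 and 50 TPM, 12 between 1 and 10 TPM, and 11 under 1 TPM. The most abundant were Fstl1, a follistatin-like secreted protein (172 TPM), Tgfb1 (163 TPM) and Eng, the endothelial co-receptor endoglin (161 TPM), whose ranges overlapped. Ltbp4 followed at 106 TPM and Tgfbr3, the co-receptor betaglycan, at 105 TPM. The BMP and GDF ligands were far lower, with Gdf11 the highest of them at 5.66 TPM, Bmp2 at 2.56 TPM and Bmp4 at 2.03 TPM. Grem1 was at 4.45 TPM and Fst at 1.52 TPM, so the antagonists that were lower in knock-out tumors were also among the scarcer members, apart from Fstl3 at 27.1 TPM.

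**Figure D2:**
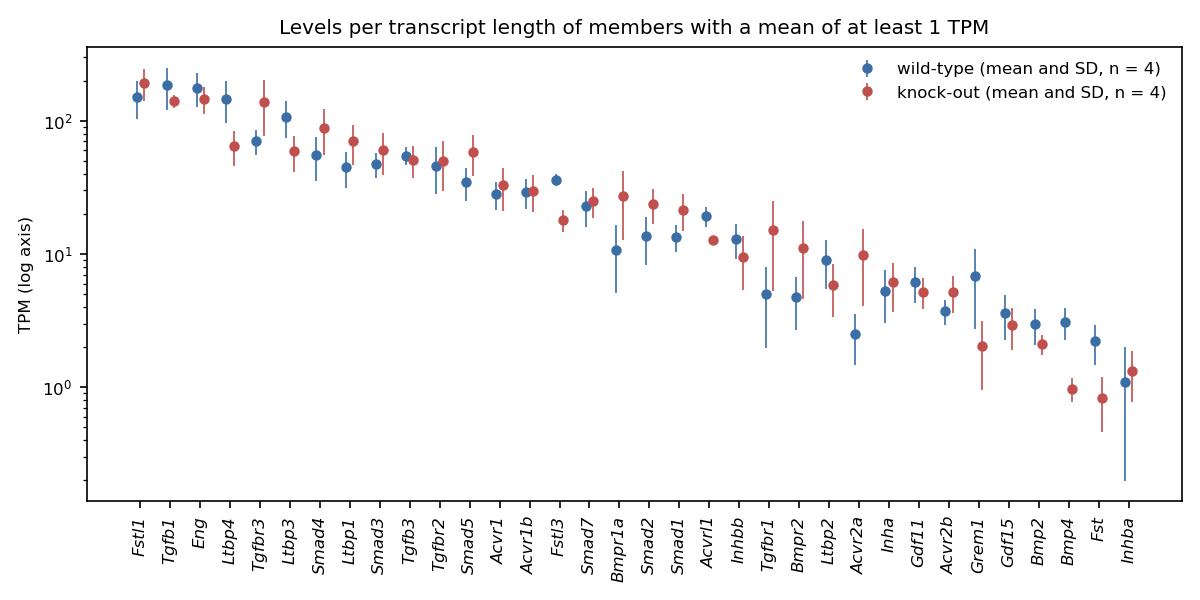
Mean TPM and SD (log axis; n = 4 tumors a group) of the members that averaged at least 1 TPM, in falling order of the mean over both groups. Fstl1, Tgfb1 and Eng lead, and Grem1, Bmp4 and Fst are among the scarcest shown.

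Of the TGF-beta ligands, none passed the test, and all 3 had a negative log2 fold change. Tgfb1, the main TGF-beta of immune cells and platelets, was at 239, 439, 218 and 586 CPM in the 4 wild-type tumors and at 353, 183, 247 and 182 CPM in the 4 knock-out tumors. The groups overlapped, with wild-type tumors 2 and 4 highest, and the log2 fold change was -0.62 ± 0.35 (SE) with an edgeR adjusted p of 0.271. Tgfb3 was at 62.1 to 74.5 CPM in wild-type and 47.2 to 58.1 CPM in knock-out tumors, without overlap, yet its adjusted p was 0.198 in edgeR. Tgfb2 was scarce, at 0.43 to 2.35 CPM over the 8 tumors. Within a tumor, Tgfb1 made up 65.9% to 84.2% of the summed TPM of the 3 ligands in wild-type tumors and 68.1% to 83.2% in knock-out tumors, so the makeup of the 3 overlapped fully.

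Bmp4, a BMP ligand made by mesenchymal cells, was the ligand that passed the test. Its gene lies on mouse chromosome 14 (GRCm38, bases 46383520 to 46390669, minus strand). Bmp4 was at 2.70, 2.43, 3.02 and 2.15 CPM in the wild-type tumors and at 0.861, 0.4998, 0.895 and 0.661 CPM in the 4 knock-out tumors. Every wild-type tumor lay above every knock-out tumor, and the lowest wild-type value was more than 2 times the highest knock-out value. The log2 fold change was -1.84 ± 0.34 (SE), a level 3.59 times higher in wild-type tumors, with an edgeR adjusted p of 0.018. A fit with the GC trend of each library removed gave -1.78 and an adjusted p of 0.0112. Of the other tested BMP and GDF genes, 6 had a negative log2 fold change, from -0.79 for Gdf10 to -0.05 for Bmp7, and none passed. Among them, Bmp6 was at 0.262 to 0.840 CPM in wild-type and 0.287 to 0.359 CPM in knock-out tumors. Gdf15, a stress-induced member of the family, was at 1.48 to 4.58 CPM in wild-type and 0.973 to 3.65 CPM in knock-out tumors, also overlapping.

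Bmp2, which signals through the same receptors as Bmp4, was at 2.57 to 6.30 CPM in wild-type and 2.17 to 2.64 CPM in knock-out tumors, overlapping, with an edgeR adjusted p of 0.189. Gdf11 was at 9.36, 7.15, 11.9 and 8.88 CPM in the wild-type tumors and at 6.17, 6.98, 6.47 and 7.30 CPM in the knock-out tumors, overlapping by 1 value, with an adjusted p of 0.222 in edgeR. Bmp5 lay on the other side, at 0 to 0.756 CPM in wild-type and 0.574 to 1.67 CPM in knock-out tumors, and the log2 fold change was 1.80 ± 0.66 (SE), at an edgeR adjusted p of 0.124. For Bmp5, 46.7% of the exonic bases are shared with a gene on the opposite strand, and whether the counting used strand is not given in the sources used here. Bmp3 was too scarce to be tested, at 0.714 CPM or less in every tumor.

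The activin and inhibin subunits did not pass. Inhbb, the beta B subunit of activin B, was at 16.0, 20.2, 26.8 and 20.5 CPM in the wild-type tumors and at 8.45, 9.50, 15.7 and 17.5 CPM in the knock-out tumors. Only knock-out tumor 4 reached into the wild-type range, and the log2 fold change was -0.71 ± 0.29 (SE) with an edgeR adjusted p of 0.151. That difference shrank to -0.15 with the GC trend removed. Inhba, the beta A subunit, was at 1.00 to 5.11 CPM in wild-type and 1.75 to 3.97 CPM in knock-out tumors. Inha, the alpha subunit of the inhibins, was at 1.67 to 4.73 CPM in wild-type and 2.11 to 3.65 CPM in knock-out tumors, inside the wild-type range.

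Receptors split by gene. Acvr2a, a type II receptor bound by activins and several BMPs, was at 5.28, 3.62, 7.65 and 4.58 CPM in the 4 wild-type tumors and at 7.83, 24.9, 13.8 and 20.7 CPM in the 4 knock-out tumors. The groups did not overlap, but wild-type tumor 3 and knock-out tumor 1 nearly met. The log2 fold change was 1.66 ± 0.38 (SE), a level 3.15 times higher in knock-out tumors, with an edgeR adjusted p of 0.0415. The gene lies on chromosome 2 (GRCm38, bases 48814109 to 48903269, plus strand). The GC content of its longest transcript is 39.9%, against a median of 49.8% over all tested genes. With the GC trend of each library removed, the log2 fold change fell to 0.87 and the adjusted p was 0.0823, past the threshold no longer.

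3 more receptors of low GC content had values on the same side without passing. Tgfbr1, the type I receptor for TGF-beta (exonic GC 41.0%), was at 14.9, 9.96, 18.4 and 3.58 CPM in wild-type and at 15.6, 48.9, 19.5 and 36.3 CPM in knock-out tumors, and the log2 fold change was 1.34 ± 0.48 (SE), at an edgeR adjusted p of 0.119. Bmpr1a, a type I BMP receptor (GC 41.3%), was at 13.6 to 37.9 CPM in wild-type and 31.1 to 74.5 CPM in knock-out tumors, with an adjusted p of 0.105 in edgeR. Bmpr2, the type II BMP receptor (GC 41.0%), was at 20.9 to 45.9 CPM in wild-type and 37.5 to 93.0 CPM in knock-out tumors, with an adjusted p of 0.120 in edgeR. In all 3, knock-out tumors 2 and 4, the most deeply sequenced, were highest, and the groups overlapped. With the GC trend removed, the log2 fold changes of Tgfbr1, Bmpr1a and Bmpr2 moved from 1.34, 1.08 and 0.95 to 0.69, 0.46 and 0.24.

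Of the other receptors, Acvrl1 was furthest from 0, on the opposite side. Acvrl1, the endothelial type I receptor (GC 56.6%), was at 23.4 to 48.1 CPM in wild-type and 14.7 to 24.7 CPM in knock-out tumors, overlapping through knock-out tumor 1. Its log2 fold change was -0.82 ± 0.28 (SE), with an edgeR adjusted p of 0.106, and -0.44 with the GC trend removed. Tgfbr2, the type II receptor for TGF-beta and the most abundant of its class, was at 152.1, 145, 170 and 81.2 CPM in the wild-type tumors and at 80.0, 151.7, 133 and 144 CPM in the knock-out tumors, with an edgeR adjusted p of 0.822. Acvr1 and Acvr1b, the type I receptors of highest mean TPM (30.4 and 29.4 TPM over the 8 tumors), overlapped in level, and Acvr1b had the higher mean in wild-type tumors. Acvr1, a type I receptor for BMPs, was at 54.0, 54.99, 49.4 and 43.7 CPM in wild-type and at 34.2, 54.0, 56.8 and 52.7 CPM in knock-out tumors, with an adjusted p of 0.936 in edgeR. For both Tgfbr2 and Acvr1, the knock-out values spanned most of the wild-type range. Acvr1b, a type I receptor for activins, was at 40.2 to 61.0 CPM in wild-type and 33.6 to 45.9 CPM in knock-out tumors, with an adjusted p of 0.484 in edgeR. Acvr2b, a type II receptor for activins, was at 4.08 to 7.45 CPM in wild-type and 5.19 to 7.71 CPM in knock-out tumors, with an adjusted p of 0.615 in edgeR. The groups overlapped in each. Bmpr1b, another BMP receptor, was too scarce to be tested, at 0.273 CPM or less.

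Neither co-receptor passed. Tgfbr3 was at 175, 185, 173 and 157.01 CPM in the 4 wild-type tumors and at 180.0, 346, 248 and 351 CPM in the 4 knock-out tumors, so that only knock-out tumor 1 lay within the wild-type range. Its log2 fold change was 0.70 ± 0.23 (SE), with an edgeR adjusted p of 0.103, and 0.51 with the GC trend removed. Eng was at 222, 358, 206 and 303 CPM in wild-type and at 185, 185, 220 and 168 CPM in knock-out tumors, and the log2 fold change was -0.52 ± 0.22 (SE), at an edgeR adjusted p of 0.165. Its value moved to -0.07 with the GC trend removed. The summed endothelial markers overlapped between genotypes, at 149.3 to 241 CPM in wild-type and 142 to 196 CPM in knock-out tumors. Of these 10 genes, 7 had a log2 fold change below 0 and 3 above, and 1 passed the test as lower. Their median was -0.23, and -0.08 with the GC trend removed.

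Because Ago2 binds microRNAs, the 3′ untranslated regions of the members were searched for perfect 8-base sites of 10 well-known microRNAs, 9 of which had a mature sequence in the RefSeq table (GRCm38.p6). A site was the complement of bases 2 to 8 of the microRNA, the seed, followed by A, in the longest annotated region of each gene, and 19 of the 41 tested members (46.3%) held at least 1, against 26.5% of 13784 tested genes with such a region. The miR-130 seed was the one most often met, in 6 of 41 members, against 2.34% of those genes. The regions of the members are longer than those of other genes, with a median of 1857 against 1141 bases. The microRNA and the 6 sites, the only ones printed, are shown because Acvr2a is among them. The seed and the 8 bases of each site are in capitals, and the last of these, the A, does not pair with the seed. Positions are on GRCm38 from GENCODE M21.
miR-130a-3p: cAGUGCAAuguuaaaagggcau
Acvr2a (chr2:48902532-48902561, plus strand): gtcccatgaacTTGCACTAtctttcatggt
Bmp5 (chr9:75898939-75898968, plus strand): tatctgacataTTGCACTAactaaaactaa
Acvr1 (chr2:58447097-58447126, minus strand): tctactcttcgTTGCACTAggaattctgtg
Inhba (chr13:16028217-16028246, plus strand): tcgtttactatTTGCACTAcgatggtgttt
Smad1 (chr8:79341834-79341863, minus strand): tttaaaaaattTTGCACTAaggtatttaaa
Tgfb2 (chr1:186624211-186624240, minus strand): tagattttgacTTGCACTAcaaattcaatt

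A shared site did not go with a shared value. The log2 fold changes of these 6 members were 1.66 for Acvr2a, 1.80 for Bmp5, 0.43 for Smad1, 0.06 for Inhba, -0.03 for Acvr1 and -0.20 for Tgfb2, with a median of 0.24. Over all 322 tested genes with that site the median log2 fold change was 0.39, and it was 0.05 over all genes with such a region. These medians were 0.10 and -0.02 with the GC trend removed. A median above that of all genes was not particular to this site: over the genes with a site of each of the other 8 microRNAs it ran from 0.18 to 0.39, and from -0.01 to 0.11 with the GC trend removed. Tgfbr1 held 3 sites, 1 for let-7a-5p and 2 for miR-181a-5p, and Bmpr2 held 2, for miR-21a-5p and miR-26a-5p. The levels of the microRNAs were not measured in these libraries, and the sites are letter matches only.

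The SMADs, the signal carriers inside the cell, did not pass the test. All 4 tested receptor SMADs had a log2 fold change above 0. Smad2, of the TGF-beta branch, was at 53.6, 32.5, 56.7 and 33.4 CPM in wild-type and at 54.97, 70.3, 66.5 and 71.7 CPM in knock-out tumors, overlapping by 1 value. The log2 fold change was 0.58 ± 0.23 (SE), at an edgeR adjusted p of 0.150, and 0.20 with the GC trend removed. Smad3, the receptor SMAD of highest mean TPM, was at 95.9, 112, 93.9 and 91.5 CPM in wild-type and at 78.3, 120, 107 and 115 CPM in knock-out tumors, with an adjusted p of 0.775 in edgeR. Smad5, of the BMP branch, was at 75.8 to 106 CPM in wild-type and 104 to 161 CPM in knock-out tumors, with knock-out tumor 3 inside the wild-type range. Its log2 fold change was 0.53 ± 0.20 (SE), with an edgeR adjusted p of 0.133, and 0.10 with the GC trend removed. Smad1, of the same branch, was the single SMAD whose groups did not overlap, at 27.4 to 34.2 CPM in wild-type and 36.9 to 48.5 CPM in knock-out tumors, with an adjusted p of 0.163 in edgeR.

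Smad4, the SMAD shared by both branches, was at 91.5, 63.6, 92.9 and 54.3 CPM in the wild-type tumors and at 74.6, 119, 97.9 and 120 CPM in the knock-out tumors. Its log2 fold change was 0.44 ± 0.24 (SE), with an edgeR adjusted p of 0.257. Smad7, an inhibitory SMAD, was at 25.0, 44.98, 28.7 and 65.0 CPM in wild-type and at 37.6, 33.7, 31.5 and 43.7 CPM in knock-out tumors, so that the knock-out values lay inside the wild-type range. Its log2 fold change was -0.15, and 0.30 with the GC trend removed. Smad6 was at 0.524 to 2.01 CPM over the 8 tumors, and Smad9 was too scarce to be tested, at 0.105 CPM or less.

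Among the antagonists, 2 of the 5 tested were called and 1 more, Fst, lay just outside the threshold, all lower in knock-out tumors. Grem1, gremlin 1, which binds and blocks Bmp2 and Bmp4, was at 10.2, 5.72, 18.2 and 8.02 CPM in the 4 wild-type tumors and at 1.29, 2.20, 4.39 and 2.71 CPM in the 4 knock-out tumors. The groups did not overlap, and wild-type tumor 3, the tumor high in muscle markers, was highest. The log2 fold change was -2.01 ± 0.45 (SE), a level 4.01 times higher in wild-type tumors, with an edgeR adjusted p of 0.0388. Without wild-type tumor 3 the value was -1.60 (adjusted p 0.0496 in edgeR). Of the 8 fits with 1 tumor left out, only 2 called Grem1, and its adjusted p reached 0.129 in edgeR. With the GC trend removed the log2 fold change was -2.37, and the adjusted p was 0.00847. Grem1 lies on chromosome 2 (GRCm38, bases 113746164 to 113758646, minus strand), with an exonic GC content of 44.7%.

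Fstl3, a follistatin-like protein that binds activins and myostatin, was at 27.4, 29.1, 33.8 and 47.1 CPM in the wild-type tumors and at 15.6, 11.6, 17.0 and 13.4 CPM in the knock-out tumors. The groups did not overlap, and the log2 fold change was -1.25 ± 0.24 (SE), a level 2.38 times higher in wild-type tumors, with an edgeR adjusted p of 0.0225. With the GC trend removed it was -0.86, with an adjusted p of 0.0356, and 0.0801 when wild-type tumor 3 was left out as well. The gene lies on chromosome 10 (GRCm38, bases 79777272 to 79782630, plus strand), and 47.3% of its exonic bases are shared with Prss57 on the opposite strand. Fst, follistatin, the activin-binding protein, was at 4.94, 3.19, 3.97 and 3.01 CPM in wild-type and at 1.48, 0.544, 1.91 and 1.19 CPM in knock-out tumors. The groups did not overlap, and the log2 fold change was -1.59 ± 0.41 (SE), with an edgeR adjusted p of 0.059. In the fit with the GC trend removed, Fst passed at -1.96, with an adjusted p of 0.0321. Fst was singled out after its values were seen.

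The other antagonists did not pass. Fstl1 was at 279, 251, 346 and 217 CPM in wild-type and 271, 281, 310 and 352 CPM in knock-out tumors, with an edgeR adjusted p of 0.651. Bambi, a decoy receptor without a kinase, was at 0.143 to 1.26 CPM in wild-type and 0.728 to 1.66 CPM in knock-out tumors. Noggin (Nog), a BMP antagonist, was too scarce to be tested, at 0.651 CPM or less. Since both Bmp4 and its antagonist Grem1 were lower, their ratio was computed within each tumor. Grem1 over Bmp4, in TPM, was 2.04, 1.28, 3.25 and 2.02 in the 4 wild-type tumors and 0.810, 2.40, 2.64 and 2.22 in the 4 knock-out tumors, so the ratios overlapped. The ratio of Fst to Inhba did not overlap in the same tumors, at 1.08 to 4.13 in wild-type and 0.426 to 0.947 in knock-out tumors. Fst alone did not overlap either, and the highest ratios, in wild-type tumors 4 and 2, rest on 7 and 24 Inhba reads. The ratio of Fstl3 to Inhbb overlapped, at 2.20 to 4.00 in wild-type and 1.34 to 3.22 in knock-out tumors, where knock-out tumor 1 lay above 3 of the 4 wild-type tumors. The summed fibroblast markers given above, mostly Col3a1, were also lower in all 4 knock-out tumors. Their part in the Bmp4, Grem1 and Fst values was not tested.

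**Figure D3:**
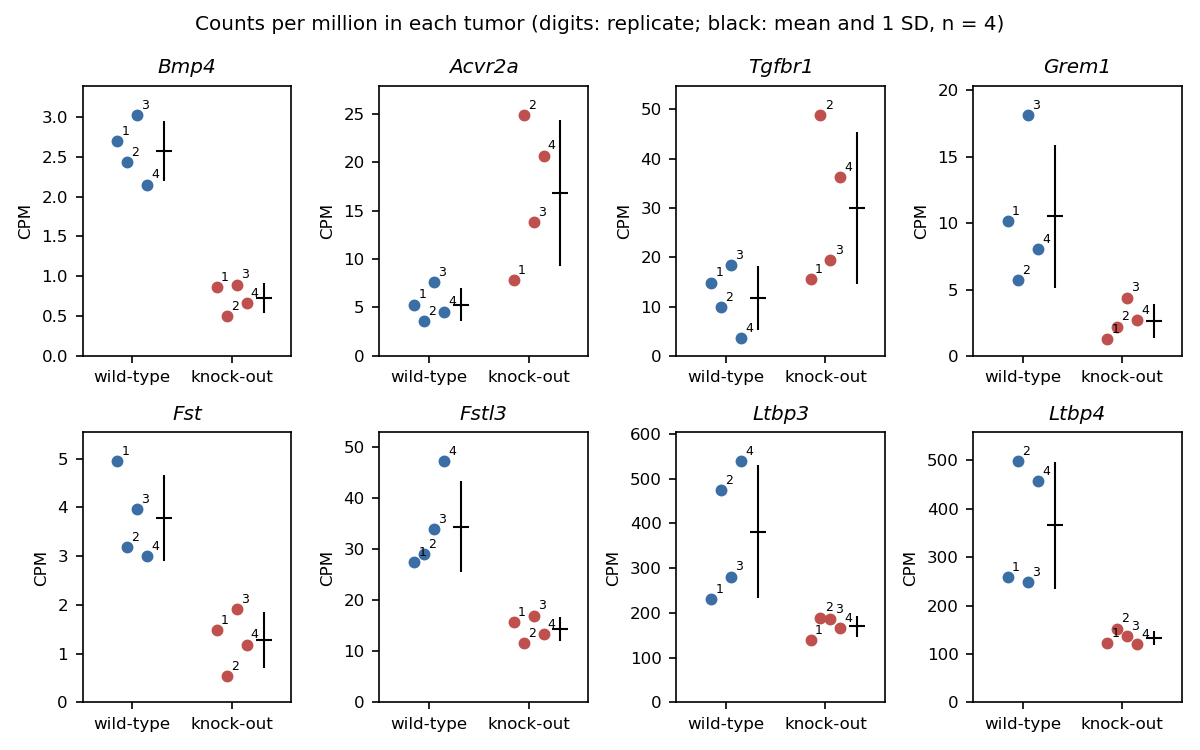
CPM (y axis, from 0) of 8 members in each tumor, with the replicate number beside each point and the mean and SD (n = 4) in black. The groups do not overlap for 7 of the 8, and Tgfbr1 is the exception.

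The LTBPs, which hold latent TGF-beta in the matrix, differed among themselves. Ltbp4, on chromosome 7 (GRCm38, bases 27305136 to 27337692, minus strand), was at 258, 498, 249 and 457 CPM in the 4 wild-type tumors and at 122, 153, 137 and 121 CPM in the 4 knock-out tumors. The groups did not overlap, with wild-type tumors 2 and 4 highest, and the log2 fold change was -1.46 ± 0.26 (SE), a level 2.75 times higher in wild-type tumors, with an edgeR adjusted p of 0.0178. Ltbp3 lay just outside the threshold, at 230, 474, 281 and 538 CPM in wild-type and 138, 189, 186 and 165 CPM in knock-out tumors, and the log2 fold change was -1.17 ± 0.28 (SE), at an edgeR adjusted p of 0.0502. Ltbp2 was at 21.1 to 41.1 CPM in wild-type and 8.90 to 18.6 CPM in knock-out tumors, again without overlap, with an adjusted p of 0.104 in edgeR. Its log2 fold change was -0.89, and -0.36 with the GC trend removed. Ltbp1 had values on the other side, at 136 to 201 CPM in wild-type and 181 to 267 CPM in knock-out tumors, with an adjusted p of 0.218 in edgeR.

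As shares of the summed LTBP TPM, which do not depend on how libraries are scaled, Ltbp1 made up 21.6%, 10.7%, 20.4% and 8.70% in the 4 wild-type tumors and 32.5%, 34.8%, 34.4% and 37.7% in the 4 knock-out tumors. Ltbp4 made up 42.5% to 51.2% in wild-type and 30.1% to 36.1% in knock-out tumors. Neither share overlapped between the groups. The exonic GC content is 52.7% for Ltbp1 and 62.2% for Ltbp4, and with the GC trend removed the log2 fold change of Ltbp4 was -0.67, with an adjusted p of 0.087, and that of Ltbp3 was -0.60, with an adjusted p of 0.130.

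**Figure D4:**
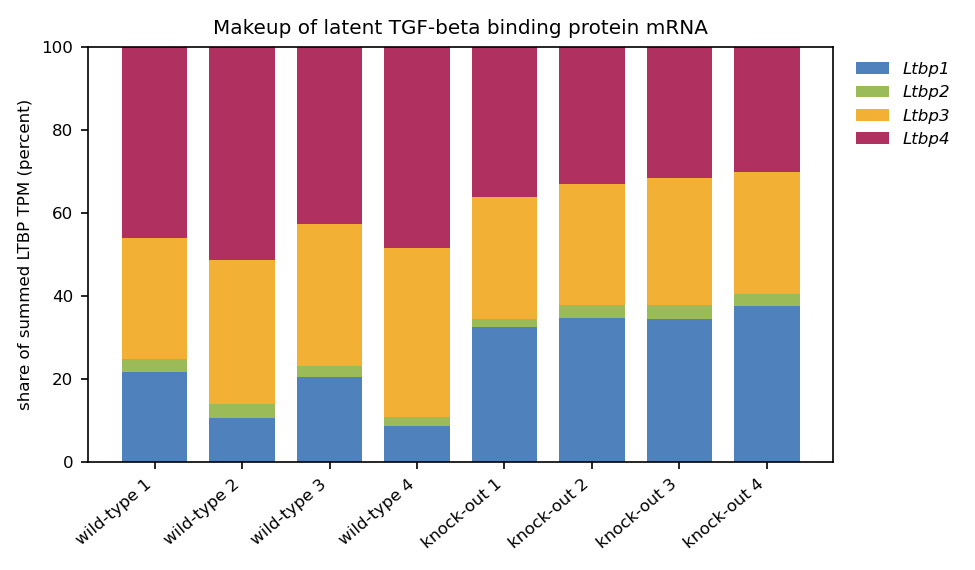
Share of each LTBP gene in the summed LTBP TPM (percent, y axis) of each of the 8 tumors. The Ltbp1 share is 8.70% to 21.6% in wild-type and 32.5% to 37.7% in knock-out tumors.

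GC content moved with the fold changes of the members as it did with those of all genes. Spearman's rho between exonic GC content and log2 fold change was -0.58 over the 41 members and -0.56 over 16059 genes, a description across genes that share the same 8 libraries. Of the 11 tested members with a GC content under 45%, 9 had a log2 fold change above 0, and of the 13 with 55% or more, none did. The medians of those sets were 0.58 and -0.69, where those of all genes in the same ranges were 0.54 and -0.49. With the GC trend of each library removed, 4 members passed, Bmp4, Grem1, Fst and Fstl3, where 3.77% of all genes did. Acvr2a and Ltbp4 did not pass in that fit, and the part of GC content in their values was not tested beyond it.

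**Figure D5:**
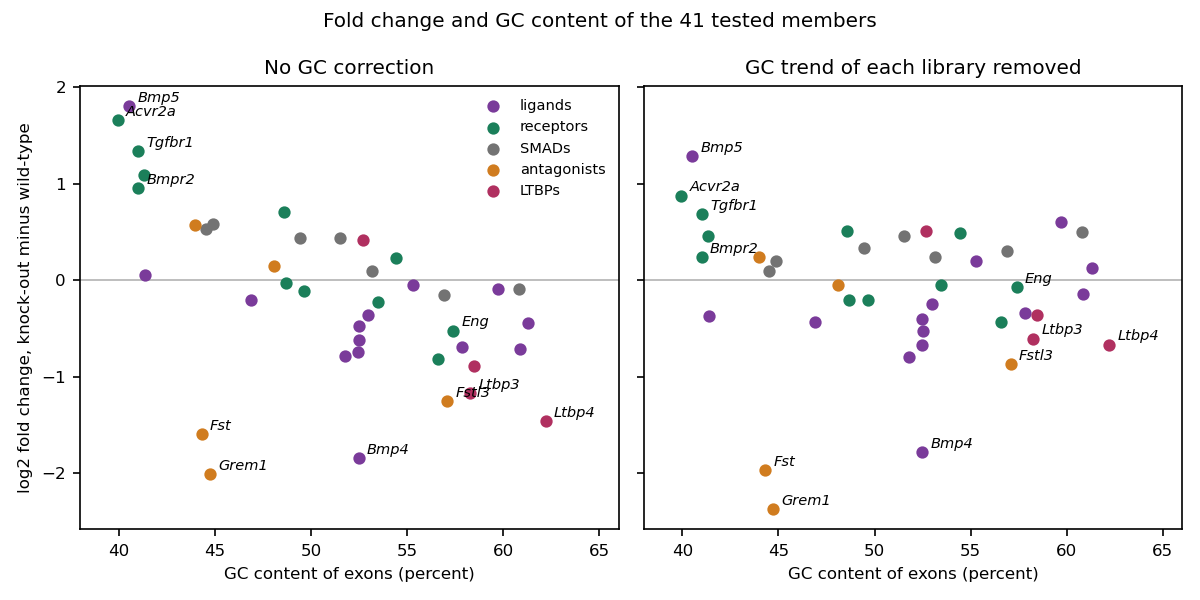
Log2 fold change (knock-out minus wild-type) of the 41 tested members against their exonic GC content (longest transcript), without (left) and with (right) removal of each library's GC trend. Receptors of low GC content and LTBPs of high GC content move toward 0, while Bmp4, Grem1 and Fst stay low.

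Other genes of the pathway were read from 7 lists of 99 genes in all, of which 76 were tested and 6 were called, 2 higher and 4 lower in knock-out tumors. This was 7.89% of those tested, against 3.49% of all genes (1.36% higher and 2.12% lower). The median log2 fold change over the 76 was -0.13, against 0.04 over all genes tested. Among 4 tested of 18 other ligands, Lefty1, a ligand that blocks Nodal, was called, at 3.00 to 7.31 CPM in wild-type and 0.537 to 1.37 CPM in knock-out tumors, a log2 fold change of -2.44 ± 0.46 (SE) with an edgeR adjusted p of 0.0208. Lefty1 has a close paralog, Lefty2, which had 1 read in knock-out tumor 4 and none in the other tumors. How reads matching both genes were counted is not given in the sources used here. Among 5 tested of 7 other receptors and co-receptors, Amhr2, the receptor for anti-Mullerian hormone, was called, at 4.79 to 9.88 CPM in wild-type and 1.13 to 2.22 CPM in knock-out tumors, with an edgeR adjusted p of 0.0136. Of 13 other antagonists tested, 2 were called, both lower. Chordin (Chrd), which sequesters BMPs, was at 1.48 to 2.72 CPM in wild-type and 0.395 to 0.595 CPM in knock-out tumors, with an edgeR adjusted p of 0.016. Biglycan (Bgn), a matrix proteoglycan, was at 193 to 290 CPM in wild-type and 64.7 to 125 CPM in knock-out tumors, with an adjusted p of 0.0299 in edgeR.

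Of 12 genes for TGF-beta activation, Itgav was called, higher in knock-out tumors. It encodes integrin alpha V, part of the integrins that free TGF-beta from its latent complex. Itgav was at 39.0, 35.8, 62.4 and 31.7 CPM in the 4 wild-type tumors and at 129, 222, 90.8 and 186 CPM in the 4 knock-out tumors, without overlap. The log2 fold change was 1.89 ± 0.32 (SE), with an edgeR adjusted p of 0.0124, and 1.39 with an adjusted p of 0.0081 with the GC trend removed. Of 12 SMAD cofactors and turnover genes, Skil, a SMAD corepressor, was called, at 16.5 to 23.0 CPM in wild-type and 29.1 to 59.9 CPM in knock-out tumors, with an edgeR adjusted p of 0.043. Its log2 fold change moved from 1.22 to 0.47 with the GC trend removed, with an adjusted p of 0.224, and its exonic GC content is 41.0%.

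The target genes of the pathway did not pass, although with the GC trend removed 1 of them, Snai2, a transcription factor of mesenchymal cells, passed at -1.14, with an adjusted p of 0.0269 in edgeR. Of 20 TGF-beta target genes tested, 9 had a log2 fold change above 0 and 11 below, with a median of -0.33. For 5 of these 20 (25%) the groups did not overlap, against 16.4% of all tested genes. Col1a1, Col1a2 and Col3a1 of this list are also among the fibroblast markers summed above. The gene furthest from 0 was Col1a1, a collagen of fibroblasts, at 393, 765, 1105 and 465 CPM in wild-type and 307, 255, 345 and 198 CPM in knock-out tumors, and the log2 fold change was -1.30 (edgeR adjusted p 0.0591). Of 10 tested BMP target genes, 6 had a log2 fold change above 0 and 4 below, and the median was 0.03. Atoh8 was furthest from 0, at 0.637 to 1.43 CPM in wild-type and 0.184 to 0.759 CPM in knock-out tumors, with an adjusted p of 0.112 in edgeR. Id1, an early BMP target, was at 8.50 to 17.9 CPM in wild-type and 8.05 to 20.0 CPM in knock-out tumors, with an edgeR adjusted p of 0.965. Id3, an early BMP target from the same family as Id1, had the lowest adjusted p of the list, at 57.0, 117, 48.3 and 168 CPM in the wild-type and 65.1, 27.7, 27.5 and 37.8 CPM in the knock-out tumors. Only knock-out tumor 1 reached into the wild-type range, and the log2 fold change was -1.30 ± 0.42 (SE), with an edgeR adjusted p of 0.0997, and -0.94 with the GC trend removed. Id1 and Id3 were named after their values were seen.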

How the data were processed

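The deposited tables held raw counts per gene, made by the authors with STAR on mm10 (per the labels and methods) and featureCounts, and TPM per gene, which the authors normalized for transcript length and depth. Settings for strand and multi-mapped reads are not given in the sources used here. All 55487 identifiers entered library totals. Of these, 99.8% matched GENCODE M21 (GRCm38) without the version number. Counts were tested with edgeR 4.0.16 (R 4.3.3; filterByExpr, TMM, quasi-likelihood test, 4 against 4 tumors), with Benjamini-Hochberg adjustment over all genes tested and a threshold of 0.05. The standard error is the log2 fold change over the square root of F. The edgeR fit, without and with a term for the replicate number, was tried on simulated counts that held no GC trend. The GC-corrected, DESeq2 and limma fits were not tried in this way. Length is that of merged exons. GC content, called exonic GC content here, is that of the longest annotated transcript of each gene. The GC correction removes each library's trend as an offset. Alternatives used DESeq2 1.42.0, limma 3.58.1 on the counts (voom) and on log2 TPM after adding 1 or 0.1, keeping genes of at least 0.5 TPM in 4 libraries, other scalings, filters and thinning, and each tumor left out. Libraries of a group differed by 39.1 to 734 times sampling noise (chi-square over degrees of freedom), so all were kept as separate samples. Counts of 3, taken as the detection floor, correspond to 0.0112 to 0.380 CPM of the raw totals. This floor and the depth cover counting error only.

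Members, lists and microRNAs were chosen with earlier results of these data known. All members are accounted for, and tumor-by-tumor values are given for those past the threshold and, in each role, for the one with the largest change and the one with the highest TPM. From each pathway list the genes past the threshold are named, or else the one with the largest change.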

Additional observations from a re-analysis of the deposited data

Results flagged for a closer look

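Within groups of 4 tumors, the gap of the highest or lowest tumor to its neighbour exceeded Dixon's 95% critical value for 2 members among 82 groups, and about 1 in 20 would do so by chance. Bmp5 in knock-out tumor 1 was at 0.574 CPM, below 1.52 to 1.67 CPM in the other 3 knock-out tumors. Gdf10, a BMP-like ligand, was at 1.97 CPM in wild-type tumor 3, above 0.143 to 0.449 CPM in the other 3 wild-type tumors, and wild-type tumor 3 was also the one high in muscle markers. Their cause was not tested.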

How the results depend on the processing

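The number of members called, 5 with all tumors, was 3 with total counts (2.60% of all genes called), 11 with the DESeq2 Wald test (13.1%), 18 with limma voom (27.9%), 8 with the length correction (7.67%), 0 with limma on log2 TPM under both pseudocounts (0.993% and 0.694%) and without the filter (0.256%), and 0 to 9 when 1 tumor was left out (0.541% to 11%). With all tumors the share over all genes was 3.49%. At an unadjusted p under 0.05 the log2 TPM fits passed 15, 15 and 12 members. The count over all genes at that level was taken only for the edgeR fit with all tumors (4281 of 16061). The log2 TPM counts therefore do not show whether the members differed from other genes. The 6 pathway genes called became 16 with DESeq2, 26 with voom, 11 without a count filter (3.24% of all genes called), 14 with the length correction, 2, 2 and 0 with the log2 TPM fits, and 0 to 18 with 1 tumor left out. The GC correction with wild-type tumor 3 left out, added after seeing the data, called 3 members (2.78% of all genes called). It also turned Inhbb from -0.71 to 0.21, while the other 15 members whose fold changes were followed kept their direction in all 16 alternatives and all 8 left-out fits. Over all genes tested, the calls ranged from 70 to 4476 across the alternatives, with 560 here. The log2 TPM scale with a pseudocount of 1 moved the median of all genes from 0.04 to 0.21. The cause of these changes was not tested.

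The replicate numbers of the 2 groups did not pair the tumors: the correlations of same-numbered tumors were -0.24, 0.10, -0.04 and -0.29. With a replicate block, 0 members and 0 pathway genes were called in edgeR, with 0.436% of all genes. At an unadjusted p under 0.05, 14 members and 20 pathway genes passed in edgeR with the block. The count over all genes was not taken there, so these counts do not show whether the genes differed from others. DESeq2 without the block called 11 and 16, with 13.1% of all genes. With the replicate block and the GC correction 2 members were called, Bmp4 and Grem1, with 1.96% of all genes. Depth limited the scarce members: 4 could not be tested, and wild-type tumor 4 held the fewest reads.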
